A study of Mus musculus with 4 samples.

Results

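The 56 genes described here were higher at E18.5 than at E16.5 in the urogenital sinus (UGS) of both wild type and *Tbx18* mutant mouse embryos. They were chosen from the 25819 rows of the deposited expression table by their stage ratios: the E18.5 value was at least 1.5 times the E16.5 value in wild type and again in the mutant, and each E18.5 library had to reach 2 FPKM (fragments per kilobase of transcript, scaled to the mapped reads of the library). Rows whose names start with Mir, Snor, Rnu, Rn, Gm or LOC were left out, and 14 of these had met the ratios and the 2 FPKM. Such names cover microRNAs, small nucleolar and nuclear RNAs and predicted genes, and any other gene so named was left out too. All 4 values of a gene therefore took part in its choice, and the levels below are a description with no test. Of the 11230 genes with 2 FPKM at E18.5 in both genotypes, 0.499% met the rule, while 473 rose past 1.5 in wild type alone and 186 in the mutant alone. Taken singly, 5.33% of genes with that level at E18.5 rose past 1.5 in wild type and 2.46% in the mutant, and 0.502% of genes fell past 1.5 in both.

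The study asked what *Tbx18*, a T-box transcription factor gene of the UGS mesenchyme, does before and during the first budding of the prostate. There were 4 groups, wild type at E16.5, Tbx18Gfp/Gfp at E16.5, wild type at E18.5 and Tbx18Gfp/Gfp at E18.5, and each was a single library from 3 male embryos on the B6C3-F1 hybrid background, whose entire UGS were combined. Tbx18Gfp/Gfp embryos carry on both chromosomes a null allele in which GFP was knocked into the gene in every cell, and wild type embryos were littermates. With 1 pooled library per group there is no replicate check, so no spread between animals and no p-value can be given, and the intervals printed are 95% counting intervals from estimated read numbers, which cover counting error only. In a whole organ, more cells of a type and more RNA per cell cannot be told apart.

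The estimated depth was 64000000 mapped reads in wild type and 55700000 in Tbx18Gfp/Gfp UGS at E16.5, and 29000000 and 52400000 at E18.5. The E18.5 wild type library stood apart from the others: the log2 stage ratio of all genes with 2 FPKM at E18.5 had a median of -0.32 and an SD over genes of 0.58 in wild type, against -0.06 and 0.27 in the mutant. Its 4 erythroid markers summed to 3804 FPKM, against 12222 to 19614 FPKM in the other libraries, and the part of this in the stage ratios was not tested. A ratio of 1.5 in wild type was farther above the median gene than the same ratio in the mutant. Without that library, 46 of the 56 genes still had an E18.5 mutant level at least 1.5 times both E16.5 levels, and the 10 that did not were *Pcp4*, *Nexn*, *Sprr1a*, *Slmap*, *2310001H12Rik*, *Cd55*, *9530009M10Rik*, *Tgfb1i1*, *Ces2g* and *Rab27b*. *Tbx18* itself was listed at 3.47, 2.50, 3.16 and 2.93 FPKM in the order of the groups above, and these values cannot show whether the transcript came from an intact locus. The urothelial gene *Upk1a*, the smooth muscle gene *Acta2* and the stromal collagen gene *Col1a1* were at 56.7 FPKM or more in all 4 libraries, whereas *Hoxb13*, a gene of the prostate field, lay between 0.94 and 2.90 FPKM.

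In late gestation the UGS turns from a simple tube into the bladder neck, urethra and prostate. Its epithelium is of urothelial and stratified type: urothelium covers its surface with plaques of uroplakin proteins, and stratifying epithelia build a cornified envelope from precursors such as involucrin and small proline-rich proteins that are cross-linked under the membrane. Its outer mesenchyme becomes smooth muscle, in which calcium-bound calmodulin switches on myosin light chain kinase, the kinase lets smooth muscle myosin pull on actin, and a myosin phosphatase switches it off. The 56 genes were grouped by known role, with the values in view. There were 13 of contraction and the actin cytoskeleton, 10 of the epithelial surface and 8 of lipid and fuel metabolism. Another 3 were matrix proteoglycans, 6 were of immunity and coagulation, and 16, the largest group, were others.

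The middle of the range was alike in both genotypes: over the 55 genes with a ratio, the median rise was 1.99-fold in wild type and 1.99-fold in the mutant, which the choice by ratio sets in part. The smaller of the 2 ratios reached 2 for 16 genes and 3 for 5, and lay between 1.5 and 2 for the other 40. Both E18.5 libraries lay above both E16.5 libraries in all 56 genes (background 8.05%). A gene that meets the rule can miss this mark only where the genotypes differ by at least its rise. The rule thus nearly fixes the outcome, and the 8.05% is no separate background. In 44 genes each E18.5 library was at least 1.5 times each E16.5 library. The 16 and the 44 are 0.142% and 0.392% of the 11230 genes. Any gene that passes either mark also meets the rule, so these shares are no separate background. Most were of modest level: the mean of the E18.5 libraries had a median of 7.06 FPKM and ranged from 2.48 to 545, with 32 genes under 10 FPKM and 4 genes, *Sprr1a*, *Myh11*, *Cald1* and *Mylk*, at 100 or more. Read estimates were available for 54 genes, 12 of which had under 100 reads in their lowest library and 5 under 50. The counting interval of the rise lay above 1.5 in both genotypes for 31 of 53 genes and above 1 for 52, the exception being *Tmsb15b1*.

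**Figure D1:**
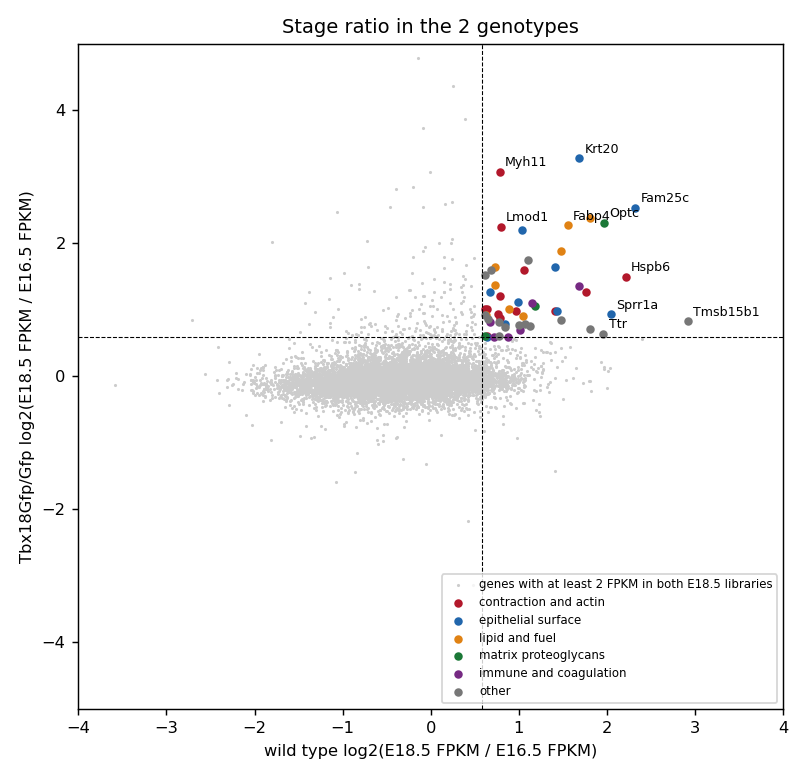
Each point is a gene that reached 2 FPKM at E18.5 in both genotypes and was above 0 at E16.5 (11229 genes), with its log2 stage ratio in wild type on the x axis and in Tbx18Gfp/Gfp on the y axis; dashed lines mark a ratio of 1.5, and coloured points are the 55 rising genes with a ratio, by role. The cloud of all genes is wide along the wild type axis (SD 0.58) and narrow along the mutant axis (SD 0.27), and the rising genes fill the upper right corner, with *Krt20* and *Myh11* highest on the mutant axis and *Tmsb15b1* farthest along the wild type axis.

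Among the epithelial genes, precursors of the cornified envelope rose beside markers of the urothelial surface. *Sprr1a*, a small proline-rich envelope precursor, was the most abundant of all 56 genes at E18.5. In wild type it went from 199 to 822 FPKM, a rise of 4.12-fold (interval 4.01 to 4.24). In Tbx18Gfp/Gfp UGS it went from 141 to 268 FPKM, a rise of 1.91-fold (1.84 to 1.98). Both E18.5 libraries lay above both E16.5 libraries, and the wild type E18.5 library was far above the other 3. *Ivl*, which encodes involucrin, followed the same order of libraries, from 9.63 to 25.9 FPKM in wild type and from 8.82 to 17.5 FPKM in the mutant (2.69-fold and 1.98-fold). *Krtdap*, a secreted protein of differentiating keratinocytes, rose from 2.78 to 5.70 FPKM in wild type and from 0.96 to 4.42 FPKM in the mutant. Only 10 reads lie behind its lowest value, so its rise is imprecise, at 2.05-fold (1.26 to 3.33) and 4.58-fold (2.31 to 9.06). *Ly6d*, a GPI-anchored surface protein of stratified epithelia, rose evenly, from 45.4 to 81.3 and from 39.6 to 68.2 FPKM (1.79-fold and 1.72-fold).

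These 4 were the members of a fixed list of 22 measured stratified epithelium and barrier genes that rose in both genotypes, and no other gene of that list rose past 1.5 in either. The list as a whole went the other way: 12 of its genes fell past 1.5 in wild type and 4 in the mutant, among them the keratin genes *Krt13* and *Krt4* and, in wild type, *Krt14* and *Krt15*, and its median log2 stage ratio was -0.75 in wild type and -0.07 in the mutant. The epidermis markers *Krt1*, *Krt10*, *Lor* and *Flg* were low, and their sum went from 11 to 7.95 FPKM in wild type and from 8.80 to 5.53 FPKM in the mutant.

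*Krt20*, *Upk2* and *Pparg* were the urothelial genes that rose in both genotypes. *Krt20*, the keratin of terminally differentiated umbrella cells, went from 1.63 to 5.24 FPKM in wild type and from 0.64 to 6.21 FPKM in the mutant, the largest rise of the 55 genes in the mutant at 9.74-fold (7.48 to 12.7), against 3.21-fold (2.65 to 3.88) in wild type. The mutant started lower and ended close to wild type. *Upk2*, a uroplakin of the apical plaque, went from 45.4 to 72.1 FPKM in wild type and from 32.1 to 77.6 FPKM in the mutant (1.59-fold and 2.42-fold). Of 18 measured genes on the fixed urothelial list, 5 rose in wild type and 9 in the mutant, 3 fell in wild type and 0 in the mutant, with a median log2 stage ratio of 0.31 in wild type and 0.53 in the mutant. All 5 uroplakin genes on the list passed 1.5 in the mutant, and in wild type *Upk2* was the single one that did. Other surface or secretory genes rose as well. *Fam25c* (listed as *2200001I15Rik*) had the largest smaller ratio of all, from 3.47 to 17.3 FPKM in wild type and from 2.58 to 14.9 FPKM in the mutant (4.99-fold, 3.48 to 7.14, and 5.80-fold, 3.87 to 8.68). *Vsig2*, an immunoglobulin-domain membrane protein, rose from 1.95 to 5.19 and from 1.41 to 4.41 FPKM. *Rab27b*, a GTPase of secretory vesicles that is known from urothelial cells, was among the weakest members, at 1.56-fold and 1.51-fold.

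The promoters of 5 of these epithelial genes are shown, since they are the epithelial genes whose proximal window held the letters searched for. The sequences are from RefSeq on GRCm38.p6 and run 5′ to 3′ from position -150 to -1 before the annotated start, at chr3:92485882-92486031 (-), chr3:92573736-92573885 (-), chr7:30787755-30787904 (+), chr14:34355394-34355543 (-) and chr11:99438154-99438303 (-), with capitals for TGANTCA, the letters bound by AP-1 factors, and for TATAAA, the letters of the TATA box.
Sprr1a: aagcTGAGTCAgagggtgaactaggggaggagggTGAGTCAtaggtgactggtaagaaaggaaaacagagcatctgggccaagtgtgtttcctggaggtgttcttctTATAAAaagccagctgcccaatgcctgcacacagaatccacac
Ivl: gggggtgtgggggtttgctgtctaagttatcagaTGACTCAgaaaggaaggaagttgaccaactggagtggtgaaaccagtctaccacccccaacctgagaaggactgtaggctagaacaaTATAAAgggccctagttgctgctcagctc
Krtdap: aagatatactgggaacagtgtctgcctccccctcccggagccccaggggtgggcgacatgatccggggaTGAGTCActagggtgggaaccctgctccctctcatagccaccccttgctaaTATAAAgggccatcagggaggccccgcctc
Fam25c: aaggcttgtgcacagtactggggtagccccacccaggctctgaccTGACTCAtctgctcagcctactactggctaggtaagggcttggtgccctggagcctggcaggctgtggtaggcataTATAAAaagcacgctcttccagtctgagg
Krt20: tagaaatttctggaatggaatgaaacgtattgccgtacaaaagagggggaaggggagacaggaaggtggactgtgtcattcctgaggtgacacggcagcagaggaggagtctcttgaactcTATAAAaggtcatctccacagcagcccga

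The TATAAA began at position -29 in *Ivl*, *Fam25c* and *Krt20*, at -30 in *Krtdap* and at -43 in *Sprr1a*, all on the strand of the gene. *Sprr1a* held TGANTCA at -146 and -116, *Ivl* at -116, *Fam25c* at -105 and *Krtdap* at -81, whereas *Krt20* held none in this window. A RefSeq promoter window of 250 bases before to 50 after the start was found for 37 of the 56 genes. Searched on both strands, TGANTCA occurred in 9 of them (24.3%, against 8.97% of 27025 genes with a promoter) and TATAAA in 10 (27.0%, against 15.7%). The CArG box of serum response factor occurred in 0 of 37 (1.81% of all genes), and AGGTGTGA, the core bound by T-box factors, in 1, *Pparg* (1.48% of all genes). A match is a description of letters and not of a bound site.

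**Figure D2:**
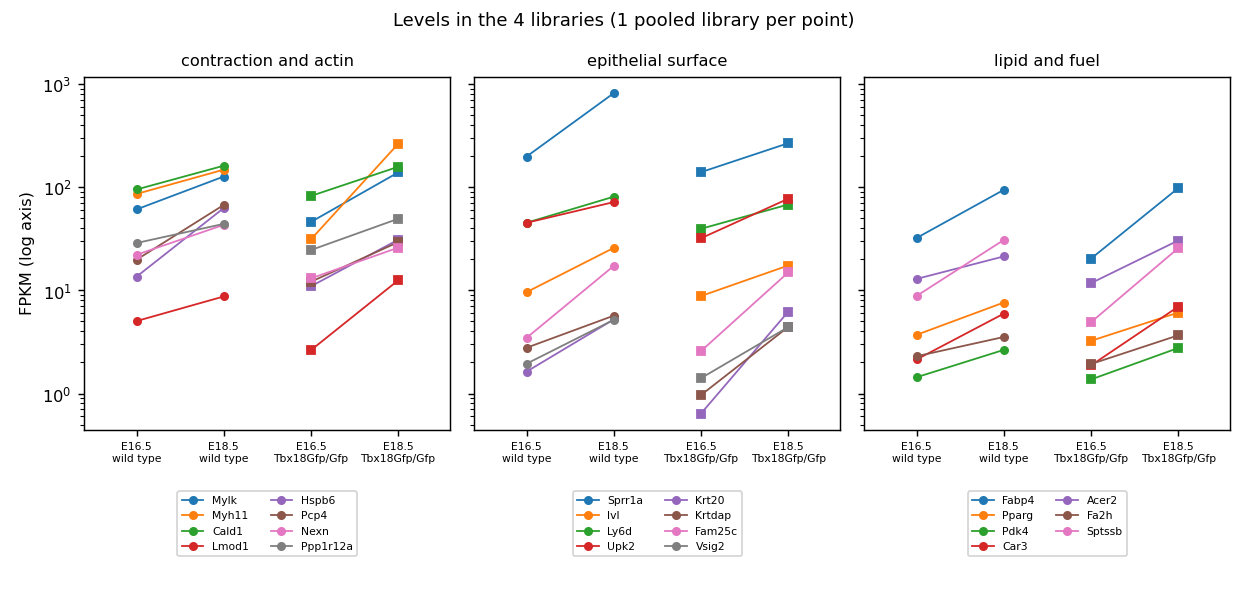
FPKM on a log axis in each of the 4 pooled libraries, for 8 genes of contraction and actin, 8 of the epithelial surface and 7 of lipid and fuel; circles and squares are wild type and Tbx18Gfp/Gfp, and lines join the stages of 1 genotype. All lines climb, as the choice of genes requires, but *Myh11*, *Lmod1* and *Krt20* climb from a lower mutant start, and *Sprr1a* ends at 822 FPKM in wild type against 268 in the mutant.

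The contraction genes included the motor, the switch and the brake. *Mylk*, the myosin light chain kinase gene, went from 61.2 to 128 FPKM in wild type and from 46.2 to 140 FPKM in the mutant, with rises of 2.08-fold (2.05 to 2.12) and 3.02-fold (2.97 to 3.07). *Myh11*, the smooth muscle myosin heavy chain, rose from 86.4 to 149 FPKM in wild type, or 1.72-fold (1.69 to 1.75). In Tbx18Gfp/Gfp UGS it rose from 31.3 to 264 FPKM, or 8.45-fold (8.28 to 8.63). It was the lowest in the mutant at E16.5 and the highest in the mutant at E18.5, with the wild type libraries between. *Lmod1*, the actin filament nucleator leiomodin, did likewise, from 5.05 to 8.75 FPKM in wild type and from 2.63 to 12.5 FPKM in the mutant (1.73-fold and 4.76-fold). *Cald1*, which encodes the actin-binding protein caldesmon, moved almost in step, from 95.5 to 162 and from 82.6 to 158 FPKM (1.70-fold and 1.92-fold). *Ppp1r12a*, the targeting subunit of myosin phosphatase, rose from 28.9 to 44.3 FPKM and from 24.7 to 49.6 FPKM (1.53-fold and 2.01-fold). The row *9530009M10Rik*, which lies within the related phosphatase gene *Ppp1r12b*, rose by 1.56-fold and 2.02-fold, but the row of *Ppp1r12b* itself did not pass 1.5, at 1.11-fold and 1.21-fold.

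*Hspb6*, *Pcp4*, *S100a1* and *Tgfb1i1* were the members of this group that rose more in wild type. *Hspb6*, a small heat shock protein of muscle, went from 13.6 to 63.1 FPKM in wild type and from 11 to 31.1 FPKM in the mutant (4.63-fold, 4.29 to 5.01, and 2.83-fold, 2.59 to 3.10). *Pcp4*, which speeds calcium exchange on calmodulin, went from 19.9 to 67.6 and from 12.1 to 29.4 FPKM (3.40-fold and 2.42-fold). For both genes the mutant level at E18.5 was under 0.5 times wild type. *S100a1*, a calcium sensor of muscle, rose from 27.7 to 73.2 and from 27.6 to 54.6 FPKM (2.65-fold and 1.98-fold). *Nexn*, an actin-binding protein of muscle, kept its genotype difference, going from 22.2 to 43.3 FPKM in wild type and from 13.1 to 26.0 FPKM in the mutant (1.95-fold and 1.99-fold). *Slmap* (sarcolemma associated protein) and *Tgfb1i1*, a focal adhesion protein also known as Hic-5, rose by 1.72-fold and 1.56-fold in wild type and by 1.85-fold and 1.53-fold in the mutant, from 17.6 FPKM or more. Over the 13 genes the median rise was 1.72-fold in wild type and 2.02-fold in the mutant, and 9 rose more in the mutant, near the 70.6% of all genes that did so. All 13 were lower in the mutant at E16.5 (background 45.2% of all genes), as were 78.6% of all 56 rising genes. *S100a1* was close to level there, at 27.6 against 27.7 FPKM. At E18.5 8 were lower (background 29.9%) and 5 higher. The 13 were chosen by these same values and grouped with them in view, so neither background is a separate comparison.

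Most smooth muscle genes did not share this pattern. Of 27 measured genes on the fixed smooth muscle contractile list, 24 rose past 1.5 in the mutant and 4 in wild type, where 4 others fell, so *Mylk*, *Myh11*, *Cald1* and *Lmod1* are those that also rose in wild type. The median log2 stage ratio of the list was 0.12 in wild type and 1.38 in the mutant, against -0.32 and -0.06 for all genes. *Actg2*, the enteric smooth muscle actin gene, had the list's largest mutant rise at 20.6-fold and a wild type ratio of 1.19. Several of these 13 genes are active in striated muscle too. The sum of 6 skeletal muscle markers went from 492 to 253 FPKM in wild type and from 219 to 288 FPKM in the mutant, with 0 of 6 higher at E18.5 in wild type and 4 of 6 in the mutant. The part of striated muscle in the members' values was not tested.

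The promoters of *Mylk* and *Hspb6* are shown as the genes with the highest level in the kinase step and with the steepest wild type rise of this group, marked as above, at chr16:34784800-34784949 (+) and chr7:30553151-30553300 (+) of GRCm38.p6.
Mylk: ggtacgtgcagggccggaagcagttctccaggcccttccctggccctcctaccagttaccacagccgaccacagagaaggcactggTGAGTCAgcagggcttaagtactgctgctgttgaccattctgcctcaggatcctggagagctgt
Hspb6: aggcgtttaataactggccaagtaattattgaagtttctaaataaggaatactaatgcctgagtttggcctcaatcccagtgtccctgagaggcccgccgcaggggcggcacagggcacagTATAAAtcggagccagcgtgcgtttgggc
*Mylk* held TGANTCA at position -64 and no TATAAA, and *Hspb6* held TATAAA at -29 and no TGANTCA.

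**Figure D3:**
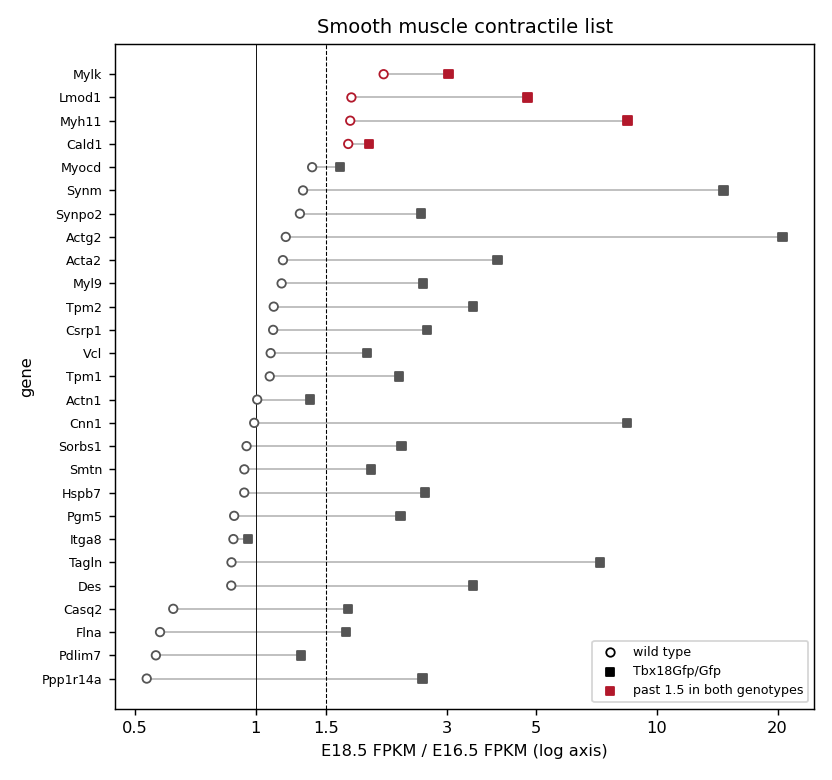
Stage ratio (E18.5 FPKM over E16.5 FPKM, log axis) of the 27 measured genes of the smooth muscle contractile list, with open circles for wild type, filled squares for Tbx18Gfp/Gfp and a dashed line at 1.5. The 4 red genes, *Mylk*, *Lmod1*, *Myh11* and *Cald1*, are past 1.5 in both genotypes; for the other 23, wild type lies under 1.5 and the mutant runs up to 20.6.

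The 8 lipid and fuel genes had a median rise of 1.95-fold in wild type and 2.86-fold in the mutant, and 7 of them rose more in the mutant (background 70.6%). *Pparg* encodes a nuclear receptor of adipocytes and urothelium, and *Fabp4* and *Pdk4* are well-known target genes of the PPAR family. *Pparg* rose from 3.71 to 7.64 FPKM in wild type and from 3.24 to 6.10 FPKM in the mutant (2.06-fold and 1.88-fold). *Fabp4*, a fatty acid carrier, rose from 32.3 to 94.7 FPKM and from 20.3 to 98.4 FPKM (2.93-fold, 2.74 to 3.14, and 4.83-fold, 4.47 to 5.23). *Pdk4*, a kinase that spares glucose by turning off pyruvate dehydrogenase, rose from 1.44 to 2.65 and from 1.37 to 2.76 FPKM.

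Adipocyte markers other than *Fabp4* were nearly absent: *Adipoq*, *Plin1* and *Cfd* were each below 0.05 FPKM in all 4 libraries. *Fabp4* is also expressed by capillary endothelium, whose 4 markers had sums between 76.3 and 83.8 FPKM in the 4 libraries. Single endothelial markers ran in wild type from 0.74-fold (*Kdr*) to 1.22-fold (*Pecam1*). The part of either cell type in the *Fabp4* values was not tested. *Car3*, a carbonic anhydrase abundant in fat and muscle, rose from 2.14 to 5.96 and from 1.87 to 6.95 FPKM (2.79-fold and 3.71-fold). On the fixed adipocyte list, 4 of 16 measured genes rose in wild type and 5 in the mutant, and 6 fell in wild type and 0 in the mutant, with median log2 stage ratios of -0.17 and 0.26. Another 3 genes of the group act on sphingolipids. *Sptssb* (listed as *1110032A04Rik*), a small subunit of the enzyme that starts sphingolipid synthesis, rose from 8.84 to 30.9 and from 4.91 to 25.7 FPKM (3.50-fold and 5.24-fold). *Acer2*, a ceramidase of the Golgi, rose from 12.9 to 21.4 and from 11.8 to 30.5 FPKM. *Fa2h*, which hydroxylates the fatty acids of sphingolipids, rose from 2.30 to 3.54 and from 1.93 to 3.67 FPKM. The sphingolipid grouping was made after the values were seen.

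**Figure D4:**
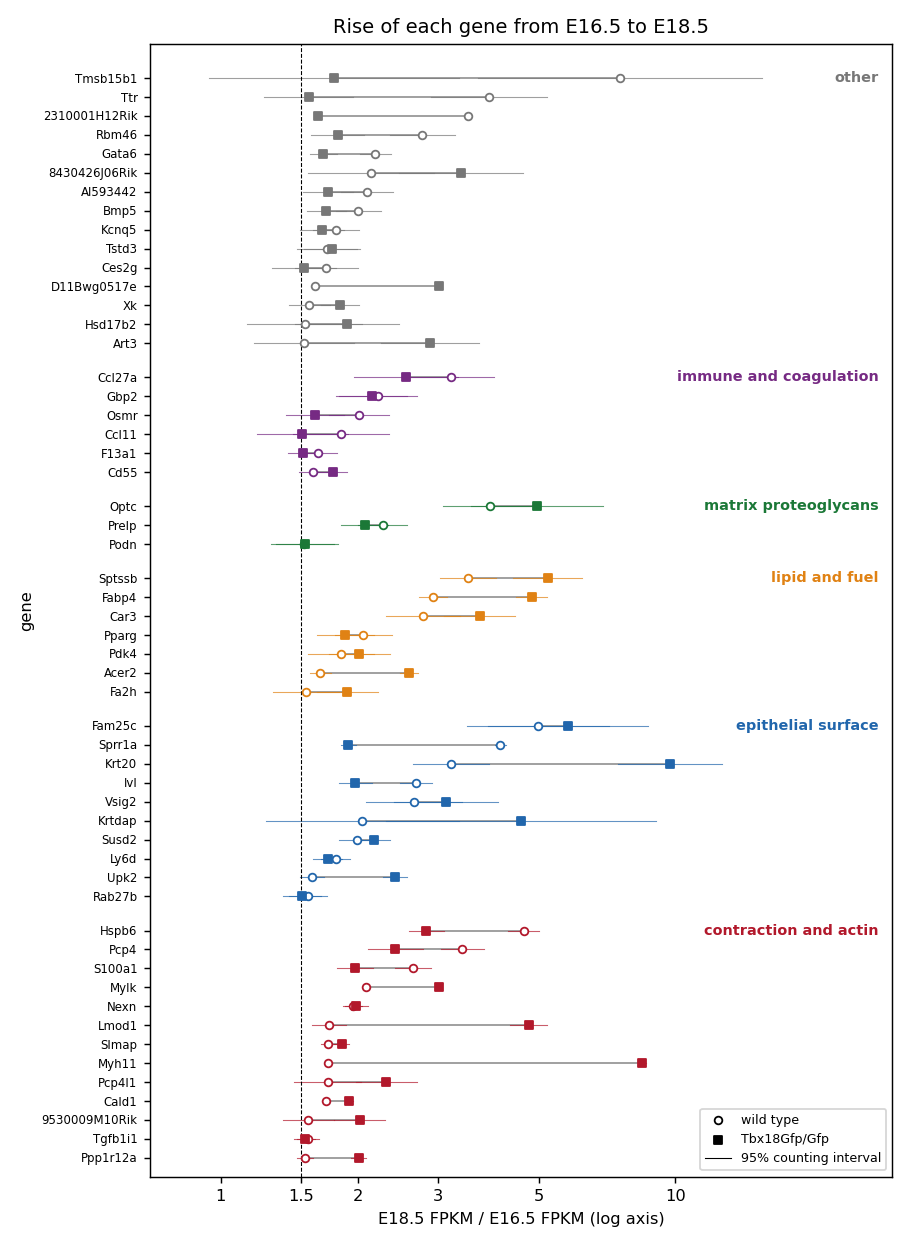
E18.5 over E16.5 FPKM (log axis) of 54 rising genes with a ratio, by role, with open circles for wild type, filled squares for Tbx18Gfp/Gfp and thin lines for the 95% counting interval, which 2 genes without a matched transcript lack. The genotypes lie close for *Nexn*, *Podn* and *Rab27b* and far apart for *Myh11* (1.72 and 8.45), *Krt20* (3.21 and 9.74) and *Tmsb15b1* (7.56 and 1.77).

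The matrix members were 3 small leucine-rich proteoglycans, *Optc*, *Prelp* and *Podn*, secreted proteins that bind collagen fibrils. *Optc*, which encodes opticin, went from 1.76 to 6.87 FPKM in wild type and from 0.78 to 3.88 FPKM in the mutant (3.90-fold, 3.08 to 4.94, and 4.96-fold, 3.55 to 6.92). *Prelp* went from 2.26 to 5.14 and from 2.17 to 4.50 FPKM (2.27-fold and 2.08-fold). In the deposited table, whose genome build is not named and whose positions differ from GRCm38, *Optc* spans chromosome 1 from 135793770 to 135804576 and *Prelp* starts 2304 bp beyond it, at 135806881. The related gene *Fmod* beside them passed 1.5 in wild type (1.52) and not in the mutant (1.05). *Podn* was weak, at 1.53-fold in both genotypes from 1.75 and 1.82 FPKM. Of 36 measured proteoglycan and elastic fibre genes on the fixed list, 9 rose in wild type and 6 in the mutant, so the 2 members on that list, *Podn* and *Prelp*, were a small part of either. The list medians were 0.12 and 0.17 on the log2 scale.

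Chemokines, a cytokine receptor and genes of complement and clotting made up 6 members. *Ccl27a*, a chemokine of epithelia, went from 5.87 to 18.9 FPKM in wild type and from 3.79 to 9.69 FPKM in the mutant (3.21-fold, 2.59 to 3.98, and 2.56-fold, 1.97 to 3.32). Near-identical copies of its locus make its level uncertain. *Ccl11*, the eosinophil attractant eotaxin, rose from 2.55 to 4.69 and from 2.57 to 3.89 FPKM, the latter 1.51-fold with an interval of 1.2 to 1.9 and so at the edge of the rule. *Cd55*, a cell surface inhibitor of complement, rose from 12.1 to 19.4 and from 8.88 to 15.7 FPKM. *F13a1*, the transglutaminase of clotting factor XIII that is also found in tissue macrophages, rose from 4.21 to 6.91 and from 5.81 to 8.80 FPKM, and was higher in the mutant at both stages. The sum of 5 macrophage markers went from 37.6 to 38.9 FPKM in wild type and from 48.0 to 49.2 FPKM in the mutant. *Gbp2*, an interferon-induced GTPase, and *Osmr*, the receptor for oncostatin M, rose by 2.21-fold and 2.01-fold in wild type and by 2.15-fold and 1.61-fold in the mutant, at 3.06 FPKM or less. On the fixed list of 22 measured leukocyte genes, 7 rose in wild type and 1 in the mutant, *Ccl11* being the shared one.

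Among the regulators, *Bmp5*, a bone morphogenetic protein ligand, rose from 2.70 to 5.42 and from 3.09 to 5.28 FPKM, and was the single gene of 50 measured on the Wnt, BMP and IGF list to rise in both. *Gata6*, a zinc finger transcription factor of endoderm and smooth muscle, rose from 6.43 to 14.0 and from 7.80 to 13.1 FPKM (2.19-fold and 1.68-fold). *Kcnq5*, a potassium channel found in smooth muscle, rose by 1.79-fold and 1.67-fold. In *Bmp5* and *Gata6* the mutant was the higher library at E16.5 and slightly the lower at E18.5. *Hsd17b2*, the enzyme that oxidises testosterone and oestradiol to weaker steroids, rose from 1.58 to 2.42 and from 1.40 to 2.65 FPKM. *Ttr*, which encodes the thyroid hormone carrier transthyretin and is made mainly by liver, rose from 1.12 to 4.34 FPKM in wild type and from 2.35 to 3.67 FPKM in the mutant. The liver markers *Afp*, *Alb*, *Apoa1* and *Fgb* had sums that went from 2.43 to 5.04 FPKM in wild type and from 13.9 to 1.37 FPKM in the mutant, so they moved with *Ttr* in wild type and fell where it rose in the mutant. Their part in the *Ttr* values was not tested.

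*Klk1b22*, a kallikrein of a large family of near-identical genes, was listed at 0 in both E16.5 libraries, and its E18.5 level was 2.59 FPKM in wild type but 4.27 FPKM in Tbx18Gfp/Gfp UGS, so no ratio is given. No other of the 15 rows of the Klk1 family exceeded 0.136 FPKM. Because reads of such copies can be assigned to any of them, which copy was expressed is uncertain. *Tmsb15b1*, of the thymosin family with close copies beside it, had the largest wild type ratio, from 0.67 to 5.04 FPKM (7.56-fold, 3.68 to 15.5), but its mutant rise, from 1.23 to 2.18 FPKM, had an interval of 0.94 to 3.34 around 1.77 and rests on few reads. *Rbm46*, an RNA-binding protein known from germ cells, rose from 2.09 to 5.81 FPKM in wild type and from 3.21 to 5.81 FPKM in the mutant. *2310001H12Rik*, which has no match in the annotation, went from 5.45 to 19.1 FPKM in wild type and from 4.98 to 8.14 FPKM in the mutant. The others, *Art3*, *Xk*, *Ces2g*, *Tstd3*, *AI593442*, *8430426J06Rik* and *D11Bwg0517e*, were at 7.47 FPKM or less in every library and rose by 1.53-fold to 2.15-fold in wild type and by 1.52-fold to 3.38-fold in the mutant.

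Between genotypes, most of the rising genes lay lower in Tbx18Gfp/Gfp than in wild type UGS at each stage. These ratios use the same 4 values as the choice of genes, so they are given as a description. Choice by stage ratio can by itself set their direction. Of the genes that rose in the mutant alone, 82.3% were lower in the mutant at E16.5 and 8.06% at E18.5. Of those that rose in wild type alone, 40.6% and 98.5% were. The shares over all genes below are therefore no separate background. At E16.5, 44 genes were lower in the mutant and 11 higher (background 45.2% lower), and 10 were lower past 1.5 and 3 higher, where 1.4% of all genes were lower and 0.534% higher by that much. At E18.5, 34 were lower and 22 higher, against 29.9% and 70.1% of all genes. Past 1.5 at E18.5 the split was 8 lower (background 5.19%) and 3 higher (background 30%), and with equal library sums it was 27 lower and 0 higher. For the members the median log2 ratio of mutant to wild type was -0.21 at the earlier and -0.09 at the later stage, against 0.01 and 0.28 for all genes. With genotype ratios centred on their median at each stage, 47 genes were lower and 9 higher at E18.5. By the deposited values, 28 genes were lower in the mutant at both stages, 5 higher at both, 16 lower and then higher, and 6 higher and then lower. No share over all genes is given for the counts with equal sums, with centring or over both stages together. Those counts are therefore not read as a trait of the rising genes.

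Of the rising genes with 10 FPKM or more in the higher E18.5 library, 5 were lowest in the mutant relative to wild type. *Sprr1a* was at 0.33 times wild type in the mutant (log2 ratio -1.61), *2310001H12Rik* at 0.43, *Pcp4* at 0.43, *Hspb6* at 0.49 and *Ccl27a* at 0.51 times. *Tmsb15b1*, under that level, was at 0.43 times wild type at E18.5 and was the higher in the mutant at E16.5. All 5 of the more abundant genes were also lower in the mutant at E16.5, and they stayed lower at E18.5 under each scaling that gave them a value. On the high side *Myh11* (1.78 times), *Lmod1* (1.43) and *Acer2* (1.43) stayed higher at E18.5 under each scaling, while *Susd2* (1.12), a membrane protein, turned lower under all of them. *Mylk* and *Upk2*, slightly higher in the mutant at E18.5 as deposited, turned lower with equal sums, upper quartile scaling, centring and a GC and length trend. *Krt20* turned lower with equal sums, centring and the trend. Both rises of a member had to reach 1.5, so shares over all genes are no separate background for their relative size. The rise itself was at least 1.5 times larger in the mutant for 11 genes (background 30.2%) and in wild type for 6 (background 5.47%), and within that margin for 38. Among those larger in the mutant, *Myh11* was the most unequal, with a mutant rise 4.91 times the wild type rise, followed by *Krt20* at 3.03 and *Lmod1* at 2.75. Among those larger in wild type it was *Tmsb15b1*, with a mutant rise 0.23 times the wild type rise on few reads.

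**Figure D5:**
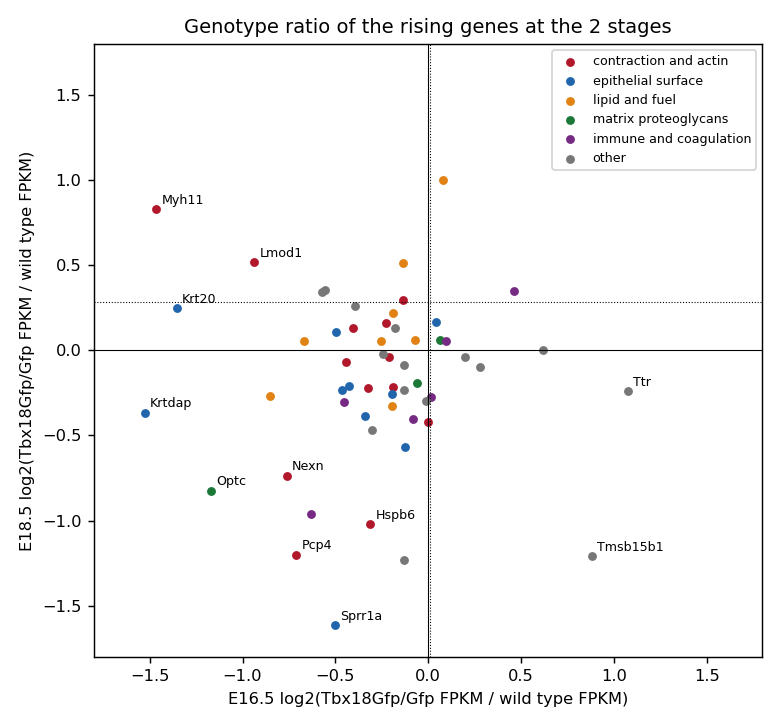
Log2 ratio of Tbx18Gfp/Gfp to wild type FPKM at E16.5 (x axis) and E18.5 (y axis) for the 55 rising genes with an E16.5 value, coloured by role; solid lines mark equal levels and dotted lines the median of all genes with 2 FPKM at E18.5 (0.01 and 0.28). Most points lie left of the vertical line, *Sprr1a*, *Pcp4* and *Hspb6* lie low at E18.5, *Myh11* and *Lmod1* are low at E16.5 and high at E18.5, and *Tmsb15b1* is the reverse.

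The genes just inside and just outside the rule show how gradual its edge is. *Tgfb1i1*, *Ppp1r12a* and *Upk2* were the nearest inside among genes of 10 FPKM or more, with smaller ratios of 1.53, 1.53 and 1.59. Just outside lay *Myadm*, a membrane protein of the MAL family, from 84.6 to 123 FPKM in wild type and from 72.0 to 109 FPKM in the mutant. *Lyve1*, the hyaluronan receptor of lymphatic vessels, went from 5.43 to 10.4 and from 7.84 to 11.5 FPKM, and *Tnnt2*, cardiac troponin T, from 61.0 to 91.2 and from 24.6 to 143 FPKM.

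The 56 genes lie on 16 chromosomes, 10 of them on chromosome 3 and 7 on chromosome 1. Within 500 kb of each other were *Optc* and *Prelp*, *Sprr1a* and *Ivl* (85.0 kb apart on chromosome 3, with 1 row between), and *Hspb6* and *Krtdap* (232 kb apart on chromosome 7). Between *Hspb6* and *Krtdap* lay 19 rows, 11 of them with 2 FPKM at E18.5 in both genotypes and none of them a member. In the epidermal differentiation region from *S100a1* to *Flg*, 13 of 61 rows had that level, and *S100a1*, *Sprr1a* and *Ivl* were the 3 members. Of 22 fixed gene lists, 10 held none of the rising genes, among them the lists for collagen chains (30 measured genes, 0 rising in wild type and 1 in the mutant), matrix proteases and their inhibitors (31 genes, 1 and 1), cell cycle (34 genes, 3 and 0), skeletal muscle (22 genes, 0 and 4) and erythroid genes (8 genes, 0 and 0).

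Transcripts of the 54 matched genes had a median length of 2021 bases and a median GC content of 48.3%, against 2828 bases and 50.4% over all genes with 2 FPKM at E18.5. The genes that rose in wild type alone had 46.6% GC and those that rose in the mutant alone 52.4%, so the shared genes lay between them.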

How the data were processed

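RNA-Seq was performed on 4 libraries, 1 per genotype and stage, each from the combined UGS of 3 male embryos, made with a stranded mRNA kit and read from single ends. The submitters' processing notes name CASAVA 1.8.2, Trimmomatic 0.30, TopHat2 2.1.0 and Cufflinks 2.2.1, and the paper states default TopHat options, so overlapping and antisense genes may share reads. The values the authors deposited are FPKM per gene, which are not read counts, with no further scaling stated. The genome build is not given in the sources used here. All 4 columns were used as deposited.

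The members and gene lists were chosen with earlier results of these data known. Ratios were taken without a pseudocount. Since each group is 1 library, no test, p-value or SD between libraries of a group was computed, and the SDs printed are over genes. Depth was estimated from single-read FPKM of single-exon olfactory receptor genes of 850 to 1150 bp, and counting intervals of 95% from the resulting read numbers, a normal approximation on the log scale. Symbols were matched to RefSeq names for 54 of 56 genes, 5 under a newer symbol. Named genes were the 25 with the largest smaller stage ratio among those reaching 10 FPKM in both E18.5 libraries and 1 FPKM in both E16.5 ones (21 qualified), members on the fixed lists, the 10 highest at E18.5, the 5 largest genotype differences in each direction at E18.5 and the 3 nearest the threshold on either side, with *Tbx18*. Others were named after their values were seen. In all, 1 gene of the set counts in the totals and is not reported here. Of 22 fixed lists 12 held a member, 22 members in all. The code that applies the rule was checked on simulated data with less spread than the measured stage ratios. That check does not test the choice of genes in these libraries. Alternatives were upper quartile scaling, equal library sums, centring of the stage ratios on their median, a lowess trend (span 0.3) on GC content and length subtracted, pseudocounts of 0.1 and 1, other thresholds and floors, repeated symbols left out, a minimum of 10 reads and the E18.5 wild type library left out. Computation used statsmodels 0.14.6, scipy 1.17.1 and matplotlib 3.10.9 under Python 3.11.15, with pandas 2.3.3 for tables and numpy 2.4.6.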

Additional observations from a re-analysis of the deposited data

Results flagged for a closer look

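Of the rising genes, *Myh11* and *Tmsb15b1* had a genotype ratio past 1.5 in opposite directions at the 2 stages. The log2 ratio of mutant to wild type for *Myh11* went from -1.47 at E16.5 to 0.83 at E18.5. For *Tmsb15b1* it went from 0.88 to -1.21, with 10 estimated reads in its lowest library. Each ratio compares single pooled libraries, and the difference between stages was not tested.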

How the results depend on the processing

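The number of genes rising in both genotypes, 56 as deposited, was 108 with stage ratios centred on their median, 92 with upper quartile scaling, 110 with the GC and length trend subtracted, 16 at a threshold of 2, 34 with a floor of 5 FPKM, 332 with no floor and 198 without the E18.5 wild type library. It was 83 with equal library sums, which moved the E18.5 wild type library by 0.29 on the log2 scale. All 56 stayed in with centring, upper quartile scaling and no floor, 53 with the trend, 52 with equal sums, where *Ces2g*, *Ccl11*, *F13a1* and *Rab27b* dropped out, and 46 without the E18.5 wild type library. The number rising in wild type, 609, was 1532 with equal sums, 1714 centred, 1386 with upper quartile scaling, 1526 with the trend, 163 at a threshold of 2 and 1708 with no floor. The number rising in the mutant, 296, was 126 at a threshold of 2 and 1389 with no floor. Members past 1.5 between genotypes numbered 13 at E16.5, or 5 at a threshold of 2. At E18.5 they numbered 11, or 27 with equal sums, 20 with the trend, 18 with genotype ratios centred (a setting chosen after seeing the data) and 6 at a threshold of 2. The median log2 stage ratio in wild type, 0.99, was 1.29 with equal sums, 1.33 centred, 1.25 with upper quartile scaling, 1.28 with the trend, 0.78 with a pseudocount of 1 and 1.14 with no floor, and in the mutant, 0.99, it was 1.09 with no floor. Of 490 alternative values for 41 named genes 4 changed sign, all for *Tbx18* in wild type, whose log2 stage ratio of -0.13 became 0.16 with equal sums, 0.20 centred, 0.13 with upper quartile scaling and 0.021 with the trend. The cause was not tested. No paired analysis was possible because the labels carry no replicate numbers and each group is 1 library, and for the same reason no replicate could be left out. Genes with few reads, such as *Krtdap* and *Tmsb15b1*, are limited by depth.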
